A study of Homo sapiens with 9 samples.

Results

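Type I interferon-stimulated genes are the antiviral genes that cells transcribe after alpha or beta interferon. They are described here in the HCC4006 lung adenocarcinoma line under 3 culture conditions. The 43 members were taken by name from a curated list, which was chosen with earlier results of these data known. All 43 matched 1 gene each among the 30672 genes tested. DDX58 is the older name of RIGI and is kept because the value table uses it. For each member the log2 intensity was followed across the groups, and its level with the inhibitor was set against its parental level.

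The line has a mutated EGFR, the epidermal growth factor receptor, and its total RNA was hybridised to 9 Illumina expression arrays, 3 per group. Parental cells are the unselected line. Resistant cells are HCC4006 cells that grew for 6 months while the concentration of gefitinib was raised, a drug that blocks the EGFR kinase. Inhibitor cells are HCC4006 cells given gefitinib in this way in combination with SB431542, a blocker of the TGFβ receptor kinase. No group is labelled as given interferon or SB431542 alone, or as grown for 6 months with no gefitinib. Compound effects, a separate selection and time in culture therefore cannot be told apart. Sample titles call the inhibitor cells resistant and inhibitor treated, and the labels do not say whether resistance came before SB431542, whether a group is 1 clone or whether a compound was present at harvest. The labels also do not say whether replicates were separate cultures, so p-values reflect only array-to-array spread, possibly technical.

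Type I interferons bind the receptor pair IFNAR1 and IFNAR2, whose kinases JAK1 and TYK2 phosphorylate STAT2. STAT2 and IRF9 are parts of the complex ISGF3, which binds the interferon-stimulated response element (ISRE) in the promoters of many interferon-stimulated genes. Epithelial cells also keep a basal level of many of these genes without added interferon, and their products sense viral RNA, degrade it, block its translation or hold virus at membranes.

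Intensities are on a linear scale with background left in, so that folds of dim genes are understated. Background was taken as an intensity of 92.6, under which 95% of the values of 377 olfactory receptor rows fell. CMPK2 lay at or under it in all 3 groups, and the other 42 members lay above it in all 3 groups. Arrays of a group correlated at 0.990 to 0.998 over all genes, and inhibitor replicate 2 stood apart, with correlations to its own group of at most 0.991. Among the members it was higher than the mean of inhibitor replicates 1 and 3 for 19 and lower for 24, by a median of -0.06 on the log2 scale and a range of -0.76 (IRF1) to 0.83 (LGALS3BP). Over all genes it was higher for 15170 and lower for 15502, with a median of -0.0012 and a range of -1.30 to 2.12. The summed intensity of 10 epithelial lung markers was 19096 to 21792 in parental, 8795 to 8929 in resistant and 23975 to 29289 in inhibitor arrays. Of these 10, 7 were called lower and 2 higher in resistant than in parental cells (10.2% of all genes each way). In inhibitor minus resistant, 7 were called higher and 0 lower (8.69% and 8.82% of all genes). In inhibitor minus parental, 5 were called higher and 2 lower (7.13% and 7.8% of all genes). NAPSA, an alveolar protease, was at a mean of 1002 in parental cells and at 98.8 and 94.2 in the others, and the surfactant gene SFTPB lay within background in all groups. The sum of 14 leukocyte markers was 2584 to 2700 in parental, 2729 to 2822 in resistant and 2320 to 2779 in inhibitor arrays. PTPRC (CD45), which defines leukocytes, and 8 other leukocyte markers lay within background in all groups. CD14, a monocyte receptor, fell from 536 in parental to 178 in resistant and 164 in inhibitor cells. The macrophage markers CD68 and CSF1R were called higher in resistant than in parental cells. In that comparison 2 of the 14 were called higher and 1 lower (10.2% of all genes each way). CD68 and CSF1R were also the ones called in inhibitor minus resistant, 1 higher and 1 lower (8.69% and 8.82% of all genes). A sum of 8 endothelial and fibroblast markers, 5 of them within background, was 696 to 711 in parental, 828 to 832 in resistant and 701 to 706 in inhibitor arrays. LUM, a matrix proteoglycan gene, was the 1 of the 8 called higher in resistant than in parental cells, with means of 85.3, 222 and 90.1 in the 3 groups. Another 1 of the 8 was called lower there, so that 12.5% were called each way, near the 10.2% of all genes. The part of these shifts in the results below was not tested, and in RNA from whole cultures fewer cells of a state and less RNA per cell cannot be told apart.

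Most of the interferon-stimulated genes were higher in inhibitor cells than in resistant cells. Of the 43 members, 28 were called higher and 4 lower at an adjusted p under 0.05 (limma, adjusted over all genes), where 8.69% of all genes were called higher and 8.82% lower. Since the members were chosen with earlier results of these data known, these shares describe the list and do not test it. The members' median difference was 0.61 on the log2 scale, with a range of -0.60 to 3.04, and the median of all genes was -0.00078. The 4 called lower were HERC5, OASL, IFITM2 and IFITM3. Without inhibitor replicate 2 the counts were 31 higher and 4 lower.

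Against parental cells, the level in inhibitor cells was also higher for most members that were called. There, 22 were called higher and 3 lower, against 7.13% and 7.8% of all genes, with a median of 0.37 (0.0045 over all genes) and a range of -0.57 to 2.67. The 3 called lower were UBE2L6, IFITM1 and IFITM2. Without inhibitor replicate 2 the counts were 24 and 2.

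Resistant cells were more divided against parental cells. In that comparison 9 members were called higher and 16 lower, against 10.2% of all genes in each direction, with a median of -0.13 (0.0045 over all genes) and a range of -2.34 to 1.11. Each comparison shares 1 group of arrays with each of the others, so that the values below are set side by side and the comparisons are not independent of each other. The median over members, taken in each array against the parental mean, was -0.05, -0.20 and -0.13 in the resistant arrays and 0.48, 0.33 and 0.27 in the inhibitor arrays. All 3 inhibitor arrays lay above all parental arrays, which were at -0.02, 0.02 and -0.0044.

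**Figure D1:**
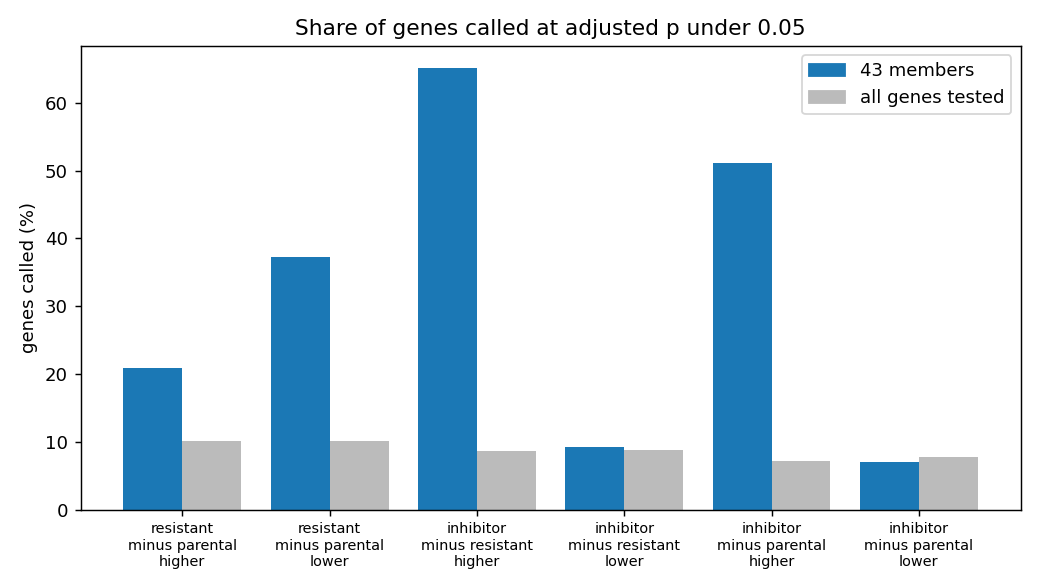
Share of genes called (%, vertical axis) in each comparison and direction at an adjusted p under 0.05, for the 43 members (blue bars) and for all 30672 genes tested (grey bars). For inhibitor minus resistant the members stand at 65.1% called higher against 8.69% of all genes.

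The members' courses over the groups differed. A course, step, rise or fall here and below compares group means and is no order in time. How many of all genes share each course was not counted, and a fall and a rise both use the same resistant arrays. No course is therefore read as particular to the members. Called lower in resistant than in parental cells and higher in inhibitor than in resistant cells were 13 members. Of these, 5 were also called above parental (IRF9, USP18, OAS2, OAS3 and IFI27) and 8 were not called against parental (IRF7, IFIH1, OAS1, IFIT5, MX2, IFI44, IFI44L and PARP9). Another 11 were not called in resistant cells and were higher in inhibitor cells than in both other groups (STAT2, DDX58, DDX60, ISG15, HERC6, IFIT1, IFIT2, MX1, IFI6, RSAD2 and SAMD9L). PARP12, SAMD9 and EPSTI1 were called higher in resistant than in parental cells and higher in inhibitor than in resistant cells. HERC5 and OASL were called higher in resistant than in parental cells and lower in inhibitor than in resistant cells. IFI35, CMPK2 and TRIM22 were called in no comparison.

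**Figure D2:**
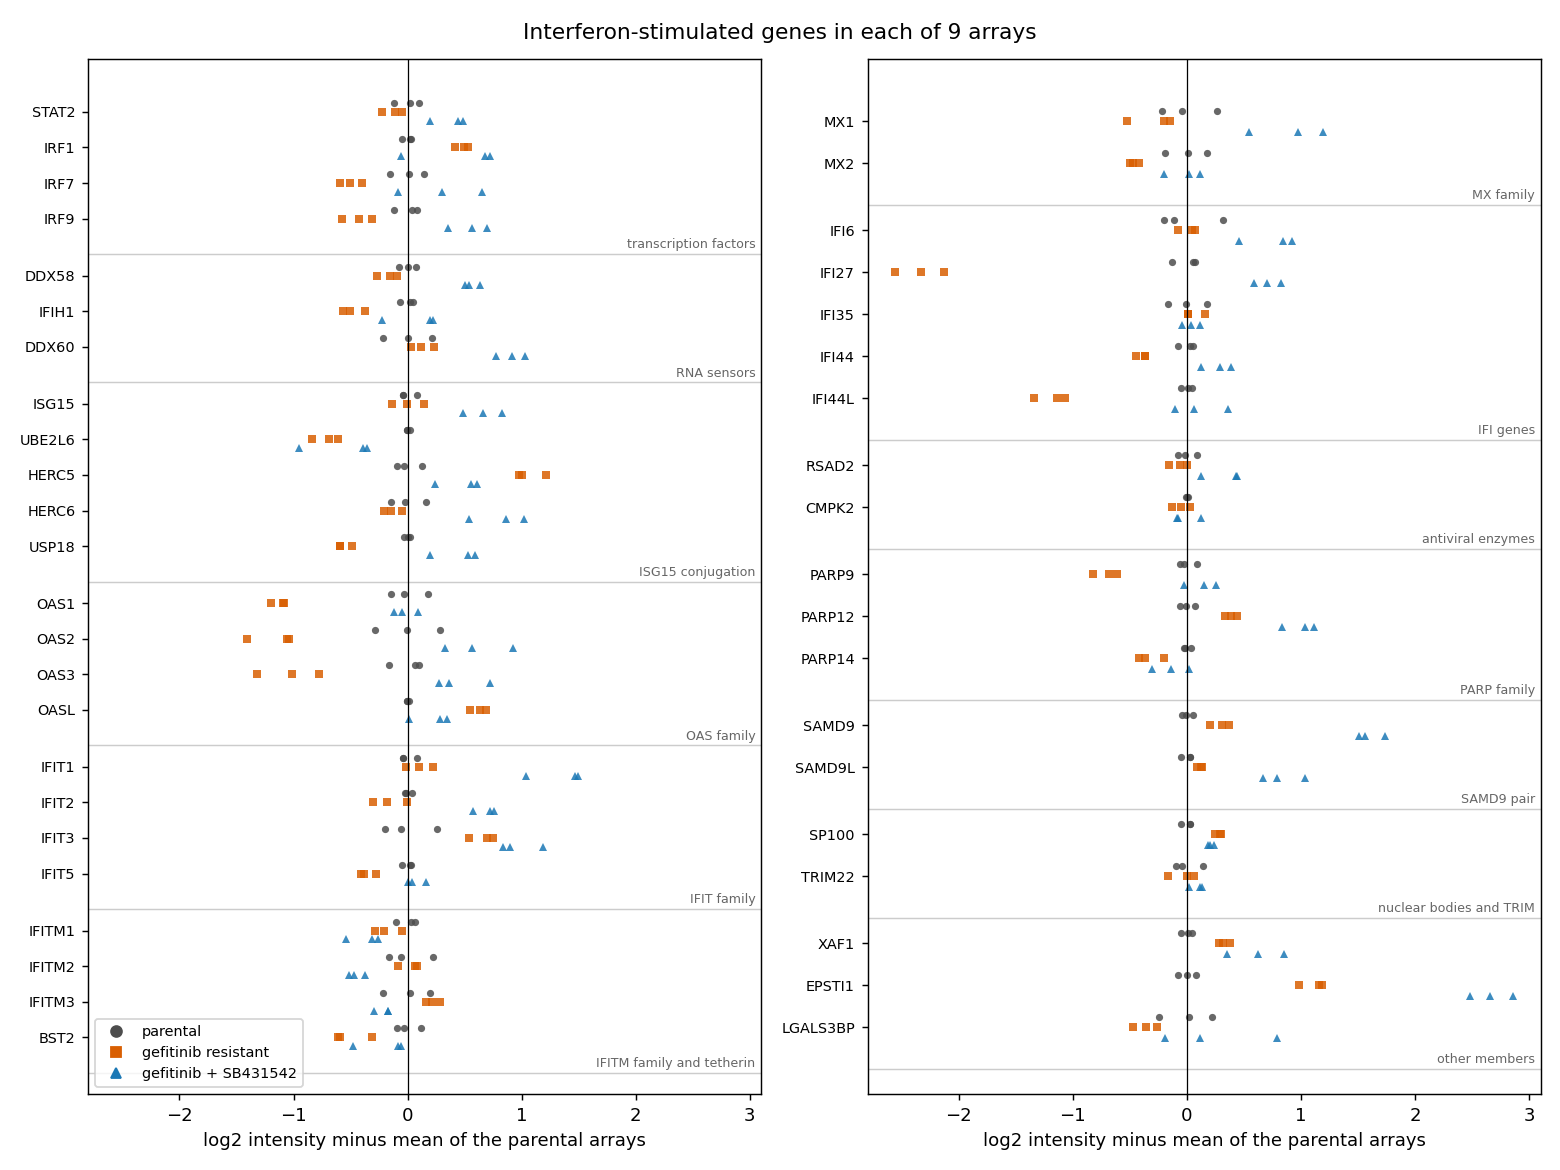
Log2 intensity of each member in every array, minus the mean of its parental arrays (horizontal axis), with parental arrays as circles, resistant arrays as squares and inhibitor arrays as triangles, grouped by role. IFI27 has the lowest resistant arrays and EPSTI1 the highest inhibitor arrays on this scale.

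The members' promoters are shown as RefSeq gives them for GRCh38.p14, from 250 bases before to 50 bases after the gene's start. A window was found for 35 of the 43 members, and not for IRF7, USP18, OAS2, OASL, IFIT2, IFITM2, MX2 and TRIM22. The letters searched were the core of the ISRE, GAAANNGAAA or on the other strand TTTCNNTTTC, and the gamma-activated site, TTCNNNGAA, which reads the same on both strands. The ISRE core was found in 21 of the 35 windows (60%) and in 996 of all 27305 windows (3.65%). Members were listed as interferon-stimulated genes, many of which carry this element. A higher share than in all windows thus follows from the list and is no result of these arrays. By call in inhibitor minus resistant, the ISRE core was in 15 of 23 windows of members called higher, in both windows of those called lower (HERC5 and IFITM3) and in 4 of 10 of those not called. The gamma-activated site was in 10 of 35 member windows (28.6%) and in 7.88% of all windows. This share too describes the list and is no result of these arrays. By call, the site was in 5 of 23 windows of members called higher, 0 of 2 called lower and 5 of 10 not called. Of 39 ISRE cores, 38 lay before the start, up to 164 bases away, and 1 after it, in MX1. Cores overlapped each other in 4 windows, and 5 cores overlapped a gamma-activated site. The windows of the 6 members with the largest inhibitor minus resistant differences among those that hold the core follow, each in the gene's own direction with the ISRE core in capitals. They lie at chr14:94110486-94110785 on the plus strand, chr13:42992192-42992491 on the minus strand, chr12:112938224-112938523 on the plus strand, chr7:93117930-93118229 on the minus strand, chr1:78620198-78620497 on the plus strand and chr10:89392373-89392672 on the plus strand.
IFI27: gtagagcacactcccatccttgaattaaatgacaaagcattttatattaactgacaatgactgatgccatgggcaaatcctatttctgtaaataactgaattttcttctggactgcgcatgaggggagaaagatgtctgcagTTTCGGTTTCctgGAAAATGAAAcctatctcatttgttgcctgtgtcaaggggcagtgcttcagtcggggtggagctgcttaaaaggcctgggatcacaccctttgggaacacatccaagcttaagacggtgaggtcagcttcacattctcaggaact
EPSTI1: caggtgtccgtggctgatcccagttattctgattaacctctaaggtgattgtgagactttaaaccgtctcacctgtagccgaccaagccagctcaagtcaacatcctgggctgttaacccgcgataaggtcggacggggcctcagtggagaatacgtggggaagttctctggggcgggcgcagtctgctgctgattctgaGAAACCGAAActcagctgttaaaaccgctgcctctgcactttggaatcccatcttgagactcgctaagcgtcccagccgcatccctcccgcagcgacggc
OAS3: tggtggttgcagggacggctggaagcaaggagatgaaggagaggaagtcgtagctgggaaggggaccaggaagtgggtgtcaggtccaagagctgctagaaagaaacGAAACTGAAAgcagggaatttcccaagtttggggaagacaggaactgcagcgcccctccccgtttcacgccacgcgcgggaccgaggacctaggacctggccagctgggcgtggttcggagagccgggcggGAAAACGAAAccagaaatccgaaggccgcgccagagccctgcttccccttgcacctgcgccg
SAMD9: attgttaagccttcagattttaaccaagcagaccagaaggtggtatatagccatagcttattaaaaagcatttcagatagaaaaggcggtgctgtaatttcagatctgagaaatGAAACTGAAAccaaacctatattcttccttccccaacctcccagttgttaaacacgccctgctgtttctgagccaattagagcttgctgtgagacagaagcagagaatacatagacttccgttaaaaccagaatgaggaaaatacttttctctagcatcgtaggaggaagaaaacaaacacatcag
IFI44L: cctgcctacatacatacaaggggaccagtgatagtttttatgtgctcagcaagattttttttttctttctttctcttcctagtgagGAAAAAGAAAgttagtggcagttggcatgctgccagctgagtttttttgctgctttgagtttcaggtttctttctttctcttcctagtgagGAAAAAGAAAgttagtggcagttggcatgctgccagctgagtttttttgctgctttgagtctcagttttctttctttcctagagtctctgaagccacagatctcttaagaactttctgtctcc
IFIT1: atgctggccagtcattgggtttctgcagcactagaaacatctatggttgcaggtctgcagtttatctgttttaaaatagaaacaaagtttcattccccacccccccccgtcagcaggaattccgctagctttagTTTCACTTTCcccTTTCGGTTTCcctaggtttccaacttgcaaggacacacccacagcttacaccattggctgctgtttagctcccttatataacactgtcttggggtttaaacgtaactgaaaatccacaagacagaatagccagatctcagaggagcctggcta

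IFI27 holds 1 core on each strand, at 108 and 95 bases before the start, EPSTI1 holds 1 at 50 bases, OAS3 has cores at 143 and 12 bases, SAMD9 has 1 at 136 bases, IFI44L has cores at 164 and 73 bases, and IFIT1 has cores at 116 and 103 bases. A match describes letters only and shows no binding, and a window without a match says only that these letters are not in it.

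Of the 5 genes named IFI, 3 were called lower in resistant than in parental cells and 4 higher in inhibitor than in resistant cells (10.2% and 8.69% of all genes). IFI27, a small mitochondrial membrane protein, moved furthest in resistant cells. IFI27 read 3542, 3586 and 3118 in the parental arrays, 676, 579 and 780.3 in the resistant arrays and 6022, 5117 and 5559 in the inhibitor arrays. The groups did not overlap in any comparison, with the resistant arrays lowest and the inhibitor arrays highest. It fell by 2.34 ± 0.11 on the log2 scale in resistant cells (adjusted p = 5.66e-12), a 5.06-fold lower level, and was 8.24-fold higher in inhibitor than in resistant cells (adjusted p = 3.2e-13). Against parental cells it was higher by 0.70 ± 0.11 (adjusted p = 0.000127). Its mean with the inhibitor, 5566 ± 453 (SD, n = 3), lay at about the 99th percentile of all intensities, 5549.

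IFI44L, a neighbour and relative of IFI44 on chromosome 1, had the same order of group means and was not called against parental. IFI44L read 343, 328 and 350.3 in the parental arrays, 155, 134 and 162 in the resistant arrays and 436, 355 and 317 in the inhibitor arrays. All resistant arrays were low, and the inhibitor and parental arrays overlapped. Resistant minus parental was -1.18 ± 0.11 (adjusted p = 1.39e-07) and inhibitor minus resistant 1.29 ± 0.11 (adjusted p = 6.93e-08), while inhibitor minus parental was 0.11 ± 0.11 (adjusted p = 0.663). IFI44, a cytoplasmic protein, read 748, 731 and 680.4 in the parental arrays, 558, 558 and 529 in the resistant arrays and 877, 939 and 781 in the inhibitor arrays. Its resistant arrays lay below and its inhibitor arrays above both other groups, with -0.39 ± 0.11 (adjusted p = 0.0154) for resistant minus parental, 0.65 ± 0.11 (adjusted p = 0.00025) for inhibitor minus resistant and 0.26 ± 0.11 (adjusted p = 0.143) for inhibitor minus parental. The last of these passed at adjusted p = 0.0267 with no trend in the variance prior, within a range of 0.0267 to 0.345 over the 18 alternatives. The fall of IFI44 in resistant cells was not called at adjusted p = 0.0514 without parental replicate 1, 0.0576 without parental replicate 2 and 0.0715 without resistant replicate 3, within a range of 0.00185 to 0.0715 over the 18 alternatives.

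IFI6, a mitochondrial protein that limits cell death, had overlapping parental and resistant arrays, from 1321 to 1882 and from 1431 to 1591, and inhibitor arrays of 2873, 2709 and 2080.3. It rose by 0.73 ± 0.14 over resistant cells (adjusted p = 0.000629). IFI35, a leucine zipper protein, was at 273 ± 32.6 in parental, 282 ± 17.5 in resistant and 278 ± 14.7 in inhibitor cells (SD, n = 3) and was called in no comparison.

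Of the OAS family, OAS1, OAS2 and OAS3 sense viral RNA and make oligoadenylates, the messenger that activates RNase L. OAS1, OAS2 and OAS3, which lie side by side on chromosome 12, fell in resistant cells and rose with the inhibitor, and OASL, which lacks the synthetase activity, did the opposite.

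OAS2 read 380.2, 564 and 462 in the parental arrays, 223, 174 and 224 in the resistant arrays and 878, 580.3 and 684 in the inhibitor arrays. The 3 groups did not overlap, and parental replicate 2 and inhibitor replicate 2 were the closest between groups. It fell by 1.17 ± 0.16 (adjusted p = 1.35e-05), and inhibitor minus resistant was 1.78 ± 0.16 (adjusted p = 8.91e-08), a 3.42-fold difference. OAS3 read 335, 280.1 and 327 in the parental arrays, 155, 125 and 183 in the resistant arrays and 401, 515 and 378 in the inhibitor arrays. Its groups also did not overlap, in the same order. It fell by 1.04 ± 0.14 (adjusted p = 8.71e-06) and rose by 1.49 ± 0.14 with the inhibitor (adjusted p = 1.16e-07). Both were called above parental, OAS2 at 0.60 ± 0.16 (adjusted p = 0.0119) and OAS3 at 0.45 ± 0.14 (adjusted p = 0.0291), and both calls were lost under some alternatives. For OAS2 the adjusted p was 0.0529 with no trend in the variance prior, 0.0869 without parental replicate 1 and 0.0779 without inhibitor replicate 1, within a range of 0.000454 to 0.0869 over the 18 alternatives. For OAS3 it was 0.0866 with no trend in the variance prior, 0.0931 with background subtracted, 0.151 without parental replicate 2, 0.0589 without parental replicate 3 and 0.0764 without inhibitor replicate 2, within a range of 0.0168 to 0.151 over the 18 alternatives.

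OAS1 read 286, 331 and 266 in the parental arrays, 128, 138 and 138 in the resistant arrays and 312, 270.1 and 284 in the inhibitor arrays. Its resistant arrays lay well below the rest, and its parental and inhibitor arrays overlapped. It fell by 1.13 ± 0.10 (adjusted p = 2.76e-08) and rose by 1.10 ± 0.10 (adjusted p = 6.33e-08), with inhibitor minus parental at -0.03 ± 0.10 (adjusted p = 0.923). OASL read 134, 136 and 134 in the parental arrays, 217, 197 and 209 in the resistant arrays and 171, 165 and 136 in the inhibitor arrays. The resistant arrays were the highest, and inhibitor replicate 3 lay within the parental range. It rose by 0.62 ± 0.08 in resistant cells (adjusted p = 1.15e-05) and fell by 0.41 ± 0.08 with the inhibitor (adjusted p = 0.00141). Its inhibitor minus parental difference of 0.21 ± 0.08 (adjusted p = 0.102) passed the threshold at adjusted p = 0.0105 without inhibitor replicate 3, within a range of 0.0105 to 0.351 over the 18 alternatives.

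**Figure D3:**
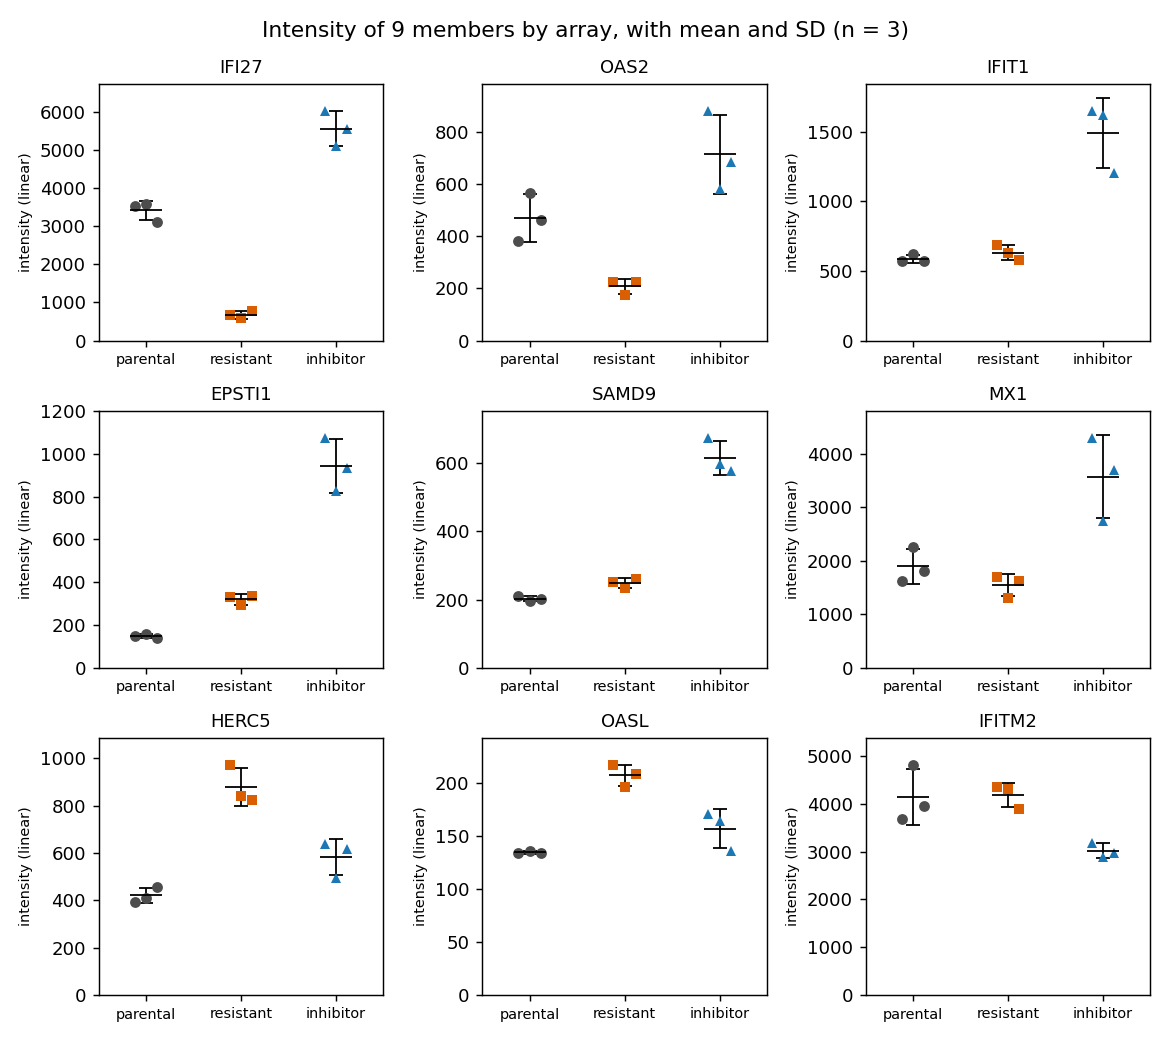
Linear intensity (vertical axes, each from 0) of 9 members in the 3 arrays of each group, with bars for the mean and SD (n = 3). IFI27 and OAS2 are lowest in resistant cells, IFIT1, EPSTI1, SAMD9 and MX1 are highest in inhibitor cells, HERC5 and OASL are highest in resistant cells, and IFITM2 is lowest in inhibitor cells.

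IFIT proteins, IFIT1 foremost, bind viral RNA that lacks the host's cap marks and block its translation. Their 4 genes lie near each other on chromosome 10, and IFIT1, IFIT2 and IFIT5 were called higher in inhibitor than in resistant cells. IFIT1 read 568, 620.3 and 568 in the parental arrays, 684, 629 and 578 in the resistant arrays and 1646, 1619 and 1199 in the inhibitor arrays. The parental and resistant arrays overlapped, and all inhibitor arrays lay far above them. It did not pass the test in resistant cells, at 0.10 ± 0.13 (adjusted p = 0.695). It rose by 1.23 ± 0.13 over resistant (adjusted p = 8.49e-07) and by 1.33 ± 0.13 over parental cells (adjusted p = 3.61e-07), the latter 2.52-fold. IFIT2 had the same course, at 925 ± 23 in parental, 829 ± 88.7 in resistant and 1489.6 ± 98.7 in inhibitor cells (SD, n = 3), a rise of 0.85 ± 0.11 over resistant cells (adjusted p = 1.45e-05).

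IFIT3, which stabilises IFIT1, was also higher in resistant than in parental cells. IFIT3 read 275, 304 and 378 in the parental arrays, 511, 531 and 459 in the resistant arrays and 722, 563 and 588 in the inhibitor arrays. The groups did not overlap, with resistant between parental and inhibitor. It rose by 0.66 ± 0.13 in resistant cells (adjusted p = 0.000927) and stood 0.97 ± 0.13 above parental with the inhibitor (adjusted p = 2.48e-05). Inhibitor minus resistant, 0.31 ± 0.13 (adjusted p = 0.124), passed the threshold at adjusted p = 0.0336 without inhibitor replicate 2, within a range of 0.0336 to 0.42 over the 18 alternatives. IFIT5 read 160.5, 152 and 159.8 in the parental arrays, 121, 118 and 129.7 in the resistant arrays and 162, 176 and 158 in the inhibitor arrays. It fell by 0.36 ± 0.07 in resistant cells (adjusted p = 0.000542), where all arrays were below both other groups, and rose by 0.42 ± 0.07 with the inhibitor (adjusted p = 0.000127).

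The MX genes encode dynamin-like GTPases that trap viral nucleocapsids, MX1 in the cytoplasm and MX2 at the nuclear pore. MX1 read 1612, 2248 and 1815 in the parental arrays, 1687, 1304 and 1628 in the resistant arrays and 4286, 2737 and 3689 in the inhibitor arrays. Parental and resistant arrays overlapped, and the inhibitor arrays, although they spread widely, were all higher. It rose by 1.20 ± 0.15 over resistant (adjusted p = 7.34e-06) and by 0.91 ± 0.15 over parental cells (adjusted p = 0.000223), while resistant minus parental was -0.29 ± 0.15 (adjusted p = 0.217). MX2, next to MX1 on chromosome 21, read 168, 216 and 192 in the parental arrays, 135, 143 and 138 in the resistant arrays and 194, 207 and 166 in the inhibitor arrays. Its resistant arrays were the lowest, and its inhibitor arrays overlapped the parental ones. It fell by 0.46 ± 0.10 (adjusted p = 0.00116) and rose by 0.44 ± 0.10 (adjusted p = 0.00238).

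ISG15 is a ubiquitin-like protein that is joined to other proteins by the E2 enzyme UBE2L6 and the ligase HERC5, and USP18 removes it and also restrains the interferon receptor. These genes were called in different directions. ISG15 was at 2129.8 ± 103 in parental and 2136 ± 210 in resistant cells and at 3371 ± 402 in inhibitor cells (SD, n = 3). Its inhibitor arrays lay above all others, 0.66 ± 0.10 over resistant cells (adjusted p = 0.000106). USP18 read 168, 171 and 165 in the parental arrays, 111, 119.8 and 111 in the resistant arrays and 243, 254 and 192 in the inhibitor arrays. The groups did not overlap. It fell by 0.56 ± 0.09 (adjusted p = 8.9e-05), rose by 1.00 ± 0.09 with the inhibitor (adjusted p = 9.01e-08) and stood 0.44 ± 0.09 above parental (adjusted p = 0.00159).

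UBE2L6 read 3310.0, 3368 and 3306 in the parental arrays, 2174, 2062 and 1858 in the resistant arrays and 2541, 1722 and 2601 in the inhibitor arrays. All parental arrays were above the rest, and inhibitor replicate 2 was the lowest of the 9. It fell by 0.72 ± 0.13 in resistant cells (adjusted p = 0.000254) and was lower than parental by 0.57 ± 0.13 with the inhibitor (adjusted p = 0.00346). Its inhibitor minus resistant difference was 0.15 ± 0.13 (adjusted p = 0.526) and was called higher at adjusted p = 0.00523 without inhibitor replicate 2, within a range of 0.00523 to 0.89 over the 18 alternatives.

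HERC5 read 393, 410.4 and 458 in the parental arrays, 970.0, 842 and 826 in the resistant arrays and 638, 495 and 617 in the inhibitor arrays. The resistant arrays were the highest and the parental arrays the lowest, without overlap. It rose by 1.06 ± 0.12 in resistant cells (adjusted p = 2.16e-06) and fell by 0.60 ± 0.12 with the inhibitor (adjusted p = 0.00174), to a level 0.47 ± 0.12 above parental (adjusted p = 0.0134). The last call was lost at adjusted p = 0.0595 without parental replicate 1, 0.0566 without parental replicate 2, 0.0745 without inhibitor replicate 1 and 0.054 without inhibitor replicate 3, within a range of 0.000308 to 0.0745 over the 18 alternatives. HERC6, its neighbour on chromosome 4 and a relative of the same ligase family, had inhibitor arrays of 428, 476 and 342, above parental arrays of 232, 212 and 264 and resistant arrays of 213, 204 and 227. It rose by 0.94 ± 0.12 with the inhibitor (adjusted p = 7.26e-06), so that these adjacent genes were called in opposite directions.

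The IFITM proteins and BST2 act at membranes, where IFITM proteins block virus fusion and BST2 (tetherin) holds budding virus at the cell surface. The calls made in these 4 genes were all falls. The IFITM paralogs are near-identical over much of their length, and probe sequences were not used here, so that which paralog a value stands for is uncertain. IFITM2 read 3682, 4803 and 3964 in the parental arrays, 4359, 4312 and 3891 in the resistant arrays and 3190.0, 2882 and 2971 in the inhibitor arrays. The inhibitor arrays were all lower than the others, and parental and resistant arrays overlapped. It fell by 0.47 ± 0.09 against resistant (adjusted p = 0.00106) and by 0.45 ± 0.09 against parental cells (adjusted p = 0.00185).

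IFITM3 read 3279.7, 3708 and 2779 in the parental arrays, 3612, 3749 and 3935 in the resistant arrays and 2866, 2637 and 2877 in the inhibitor arrays. It fell by 0.43 ± 0.10 against resistant cells (adjusted p = 0.0032), with inhibitor arrays that overlapped the lower end of the parental range. Its resistant minus parental difference of 0.22 ± 0.10 (adjusted p = 0.135) passed at adjusted p = 0.0343 without parental replicate 2, within a range of 0.0343 to 0.556 over the 18 alternatives, and its inhibitor minus parental difference of -0.21 ± 0.10 (adjusted p = 0.18) at 0.033 without parental replicate 3, within a range of 0.033 to 0.619 over the 18 alternatives. IFITM1 read 1159, 1304 and 1271 in the parental arrays, 1201, 1078 and 1019.6 in the resistant arrays and 998, 855 and 1036 in the inhibitor arrays. All inhibitor arrays lay below all parental arrays, a fall of 0.37 ± 0.12 (adjusted p = 0.0335). That call was lost at adjusted p = 0.0791 with 2 groups in the fit, 0.134 without parental replicate 2, 0.106 without parental replicate 3, 0.0534 without resistant replicate 2, 0.0571 without inhibitor replicate 1 and 0.059 without inhibitor replicate 2, within a range of 0.0159 to 0.134 over the 18 alternatives. BST2 fell by 0.50 ± 0.12 in resistant cells (adjusted p = 0.0054), from 1962 ± 150 to 1387 ± 168 (SD, n = 3). With the inhibitor it read 1848, 1407 and 1880.0, and inhibitor minus resistant, 0.30 ± 0.12 (adjusted p = 0.122), passed at adjusted p = 0.00376 without inhibitor replicate 2, within a range of 0.00376 to 0.342 over the 18 alternatives.

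Of the transcription factors that carry the response, STAT2, IRF7 and IRF9 rose with the inhibitor, and IRF1 was not called against resistant cells, at -0.03 ± 0.16 (adjusted p = 0.939). IRF9, the DNA-binding part of ISGF3, read 1019.7, 1173 and 1135 in the parental arrays, 744, 824 and 890.1 in the resistant arrays and 1792, 1636 and 1416 in the inhibitor arrays. The groups did not overlap, with resistant lowest and inhibitor highest. It fell by 0.44 ± 0.12 (adjusted p = 0.0109), rose by 0.98 ± 0.12 with the inhibitor (adjusted p = 5.08e-06) and stood 0.54 ± 0.12 above parental (adjusted p = 0.00324). The fall in resistant cells was not called at adjusted p = 0.0582 without parental replicate 2 and 0.0779 without resistant replicate 1, within a range of 0.00198 to 0.0779 over the 18 alternatives. STAT2 rose by 0.50 ± 0.12 over resistant cells (adjusted p = 0.00407), to 623 ± 63.7 from 439.9 ± 26.9 (SD, n = 3). Its rise of 0.37 ± 0.12 over parental cells (adjusted p = 0.0332) was lost at adjusted p = 0.0871 with 2 groups in the fit, 0.131 without parental replicate 1, 0.0783 without parental replicate 3, 0.0523 without resistant replicate 1, 0.0536 without resistant replicate 3, 0.138 without inhibitor replicate 1 and 0.1 without inhibitor replicate 3, within a range of 0.00207 to 0.138 over the 18 alternatives.

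IRF7, which drives alpha interferon genes, read 292, 265 and 237 in the parental arrays, 175, 185 and 199 in the resistant arrays and 416, 248 and 326 in the inhibitor arrays. The resistant arrays were the lowest, and inhibitor replicate 2 lay within the parental range. It fell by 0.50 ± 0.14 (adjusted p = 0.0125), a call lost at adjusted p = 0.0575 with no trend in the variance prior, 0.071 without parental replicate 1 and 0.0708 without resistant replicate 1, within a range of 0.00012 to 0.071 over the 18 alternatives. It rose by 0.79 ± 0.14 with the inhibitor (adjusted p = 0.000321). Inhibitor minus parental was 0.29 ± 0.14 (adjusted p = 0.205) and passed at adjusted p = 0.00197 without inhibitor replicate 2, within a range of 0.00197 to 0.689 over the 18 alternatives. IRF1, which responds to both interferon types, read 406, 431 and 427 in the parental arrays, 607, 562 and 594 in the resistant arrays and 676, 404 and 696 in the inhibitor arrays. Inhibitor replicate 2 stood next to the parental arrays while the other inhibitor arrays were the highest of all. It rose by 0.48 ± 0.16 in resistant cells (adjusted p = 0.0364), a call lost at adjusted p = 0.0557 with cyclic loess scaling, 0.0924 with no trend in the variance prior, 0.108 without parental replicate 1, 0.0791 without parental replicate 2, 0.0882 without parental replicate 3, 0.123 without resistant replicate 1, 0.0731 without resistant replicate 2 and 0.103 without resistant replicate 3, within a range of 0.000144 to 0.123 over the 18 alternatives. Its inhibitor minus parental difference of 0.45 ± 0.16 (adjusted p = 0.0657) passed at adjusted p = 0.049 with dim genes left out and 9.24e-06 without inhibitor replicate 2, within a range of 9.24e-06 to 0.268 over the 18 alternatives.

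All 3 RNA sensors and helicases were called higher in inhibitor than in resistant cells, where 8.69% of all genes were. DDX58 (RIG-I), which detects viral RNA ends, had inhibitor arrays of 229, 209.6 and 214, above parental arrays of 140.1, 155 and 148 and resistant arrays of 138, 122 and 133, and rose by 0.73 ± 0.07 over resistant (adjusted p = 4.37e-07) and 0.56 ± 0.07 over parental cells (adjusted p = 1.68e-05). DDX60, a helicase related to these sensors, rose by 0.78 ± 0.11 (adjusted p = 2.91e-05) and 0.91 ± 0.11 (adjusted p = 6.06e-06) in the same comparisons. IFIH1 (MDA5), which detects long viral RNA, read 369, 391 and 400.0 in the parental arrays, 272, 261 and 298 in the resistant arrays and 444, 450.0 and 331 in the inhibitor arrays. Its resistant arrays were the lowest, and its inhibitor arrays spanned the parental ones. It fell by 0.48 ± 0.12 (adjusted p = 0.00554) and rose by 0.55 ± 0.12 (adjusted p = 0.00248).

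EPSTI1, named for the interaction of epithelium and stroma, and SAMD9, which limits poxviruses and cell growth, had the largest rises over parental cells. EPSTI1 read 148, 156 and 140.1 in the parental arrays, 329.6, 292 and 335 in the resistant arrays and 1072, 824 and 932 in the inhibitor arrays. The groups were far apart and in 1 order, parental, resistant, inhibitor. It rose by 1.11 ± 0.11 in resistant cells (adjusted p = 3.31e-07) and stood 2.67 ± 0.11 above parental with the inhibitor (adjusted p = 2.76e-12), a 6.35-fold difference. SAMD9 read 210.4, 196 and 201 in the parental arrays, 251, 234 and 261 in the resistant arrays and 673, 597 and 577 in the inhibitor arrays. The groups did not overlap, and the step to the inhibitor arrays was the wider one. It rose by 1.31 ± 0.10 over resistant cells (adjusted p = 9.14e-09) and by 1.60 ± 0.10 over parental cells (adjusted p = 5.92e-10). Its smaller rise in resistant cells, 0.29 ± 0.10 (adjusted p = 0.0422), was lost at adjusted p = 0.0774 with cyclic loess scaling, 0.0583 without parental replicate 1, 0.15 without parental replicate 2, 0.112 without parental replicate 3, 0.126 without resistant replicate 1, 0.0565 without resistant replicate 2 and 0.166 without resistant replicate 3, within a range of 0.00666 to 0.166 over the 18 alternatives. SAMD9L, the adjacent paralog on chromosome 7, was near background in parental cells, at 95.6, 101 and 101, and rose by 0.72 ± 0.08 with the inhibitor (adjusted p = 7.64e-07).

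The PARP members, which attach or bind ADP-ribose, split 3 ways. PARP12 read 163, 178 and 168 in the parental arrays, 230.3, 221 and 213 in the resistant arrays and 347, 366 and 302 in the inhibitor arrays. The groups rose in that order without overlap, by 0.39 ± 0.09 in resistant cells (adjusted p = 0.00417) and by 0.61 ± 0.09 from resistant to inhibitor cells (adjusted p = 7.03e-05). PARP9 read 677, 627 and 614 in the parental arrays, 399, 361 and 417 in the resistant arrays and 709, 762 and 628 in the inhibitor arrays. It fell by 0.71 ± 0.11 (adjusted p = 0.000103) and rose by 0.83 ± 0.11 (adjusted p = 2.19e-05), and its inhibitor arrays overlapped the parental ones. PARP14 fell by 0.33 ± 0.10 in resistant cells (adjusted p = 0.0283) and was not called with the inhibitor, at 0.19 ± 0.10 (adjusted p = 0.277). The fall was lost at adjusted p = 0.0584 without parental replicate 1, 0.0965 without parental replicate 2, 0.0633 without parental replicate 3, 0.136 without resistant replicate 2 and 0.102 without resistant replicate 3, within a range of 0.00449 to 0.136 over the 18 alternatives.

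RSAD2 (viperin), an enzyme that makes a chain-terminating nucleotide, had inhibitor arrays of 173, 174 and 139.9 over resistant arrays of 123, 115 and 129, a rise of 0.40 ± 0.08 (adjusted p = 0.00134). It also rose by 0.33 ± 0.08 over parental cells (adjusted p = 0.00771), a call lost at adjusted p = 0.0538 without parental replicate 3, within a range of 0.000443 to 0.0538 over the 18 alternatives. Its neighbour on chromosome 2, the nucleotide kinase gene CMPK2, lay within background. XAF1, a pro-apoptotic protein, read 154, 151 and 144 in the parental arrays, 186, 182 and 194 in the resistant arrays and 269, 191 and 230.5 in the inhibitor arrays. It rose by 0.32 ± 0.10 in resistant cells (adjusted p = 0.0244) and stood 0.61 ± 0.10 above parental with the inhibitor (adjusted p = 0.000188). The first of these was lost at adjusted p = 0.0526 with cyclic loess scaling, 0.0565 with no trend in the variance prior, 0.0651 without parental replicate 2, 0.102 without parental replicate 3, 0.0691 without resistant replicate 1 and 0.0959 without resistant replicate 3, within a range of 0.000722 to 0.102 over the 18 alternatives. Inhibitor minus resistant, 0.28 ± 0.10 (adjusted p = 0.0559), passed at adjusted p = 0.0459 with cyclic loess scaling, 0.0449 with dim genes left out and 0.000506 without inhibitor replicate 2, within a range of 0.000506 to 0.299 over the 18 alternatives.

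SP100, a nuclear body protein, rose by 0.28 ± 0.07 in resistant cells (adjusted p = 0.00734), and its inhibitor minus parental difference of 0.21 ± 0.07 (adjusted p = 0.0555) passed at adjusted p = 0.00422 with no trend in the variance prior, 0.0326 with dim genes left out and 0.0368 without inhibitor replicate 2, within a range of 0.00422 to 0.213 over the 18 alternatives. TRIM22, a ubiquitin ligase, stayed near background, with arrays from 88.4 to 109. LGALS3BP, a secreted glycoprotein, read 1019.7, 1223 and 1408 in the parental arrays, 871, 943 and 1004 in the resistant arrays and 1304, 2082 and 1055 in the inhibitor arrays. Inhibitor replicate 2 was by far the highest, and the other inhibitor arrays lay within the parental range. Its rise of 0.60 ± 0.18 over resistant cells (adjusted p = 0.0267) was lost at adjusted p = 0.103 with no trend in the variance prior, 0.117 without resistant replicate 1, 0.0789 without resistant replicate 2, 0.053 without resistant replicate 3 and 0.0819 without inhibitor replicate 2, within a range of 0.00231 to 0.117 over the 18 alternatives. Resistant minus parental was -0.36 ± 0.18 (adjusted p = 0.2) and was called at adjusted p = 0.0196 with 2 groups in the fit and 0.0169 without inhibitor replicate 2, within a range of 0.0169 to 0.525 over the 18 alternatives.

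The genes that start and carry the response were read from further lists. Of 21 interferon ligand genes, 20 lay within background in all groups, IFNB1 among them. The 1 ligand above background in at least 1 group was called in no comparison. All 21 summed to intensities of 1762 to 1815 in parental, 1768 to 1808 in resistant and 1777 to 1820 in inhibitor arrays. IFNL2, listed under an older name and within background, was the 1 ligand called in inhibitor minus resistant, at 0.15 ± 0.04 (adjusted p = 0.0114), and that call was lost at adjusted p = 0.053 with no trend in the variance prior, 0.0808 without resistant replicate 1 and 0.067 without inhibitor replicate 3, within a range of 0.00779 to 0.0808 over the 17 alternatives. Background intensity on these arrays does not show that a ligand was absent.

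Of 16 receptor and signalling genes, 2 were called higher and 2 lower in inhibitor minus resistant (12.5% each way, near the 8.69% and 8.82% of all genes), with a median of -0.01. The higher count was 1 without resistant replicate 3 or inhibitor replicate 1. JAK1, the receptor kinase, rose by 0.57 ± 0.11 in resistant cells (adjusted p = 0.00053) and fell by 0.59 ± 0.11 with the inhibitor (adjusted p = 0.000454). Of the receptor chains, IFNAR1 was called in no comparison, and IFNAR2 fell by 0.31 ± 0.08 between parental and inhibitor cells (adjusted p = 0.0125), a call lost at adjusted p = 0.0634 without parental replicate 1 and 0.058 without inhibitor replicate 3, within a range of 0.0072 to 0.0634 over the 18 alternatives. The kinase TYK2 was called in no comparison. IFNLR1, the lambda interferon receptor chain, rose by 0.48 ± 0.07 with the inhibitor (adjusted p = 2.55e-05).

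Among 18 nucleic acid sensing genes, 5 were called higher in inhibitor minus resistant (27.8%, against 8.69% of all genes), with a median of 0.10. That count was 3 without resistant replicate 1 and 2 without resistant replicate 2 or 3. MAVS, the adaptor of DDX58 and IFIH1, rose by 0.34 ± 0.08 over resistant (adjusted p = 0.00323) and by 0.56 ± 0.08 over parental cells (adjusted p = 2.57e-05). STING1, the adaptor of DNA sensing, fell by 0.98 ± 0.11 in resistant cells (adjusted p = 1.54e-06) and was lower than parental with the inhibitor, at -0.62 ± 0.11 (adjusted p = 0.000513). Its inhibitor minus resistant rise of 0.36 ± 0.11 (adjusted p = 0.0312) was lost at adjusted p = 0.137 without resistant replicate 1, 0.0718 without resistant replicate 2, 0.078 without resistant replicate 3 and 0.0629 without inhibitor replicate 2, within a range of 0.00752 to 0.137 over the 18 alternatives. CGAS and IRF3 were called in no comparison.

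A further 37 interferon-induced genes outside the 43 members were read in the same fit. In inhibitor minus resistant 14 were called higher and 1 lower (37.8% and 2.7%, against 8.69% and 8.82% of all genes), with a median of 0.20. PNPT1, a mitochondrial exoribonuclease, was the 1 called lower, at -0.41 ± 0.11 (adjusted p = 0.0133), a call lost at adjusted p = 0.0895 without resistant replicate 1 and 0.0664 without resistant replicate 3, within a range of 0.00416 to 0.0895 over the 18 alternatives. Without inhibitor replicate 2, 2 were called lower. In resistant minus parental 3 were higher and 13 lower (8.11% and 35.1%, against 10.2% of all genes each way), with a median of -0.13. In inhibitor minus parental 4 were higher and 3 lower (10.8% and 8.11%), near the 7.13% and 7.8% of all genes. The median there was 0.035, so the list as a whole did not stand above parental as the members did. TNFSF10 (TRAIL), a death ligand, read 1199.5, 1069 and 1147 in the parental arrays, 311, 325 and 360.4 in the resistant arrays and 955, 1007 and 893 in the inhibitor arrays. All resistant arrays lay below the others. It fell by 1.78 ± 0.11 (adjusted p = 3.74e-10) and rose by 1.52 ± 0.11 (adjusted p = 6.44e-09). All its inhibitor arrays lay below all parental arrays. Inhibitor minus parental, -0.26, was not called, and passed at adjusted p = 0.0327 with no trend in the variance prior. LY6E, a membrane protein that limits virus entry, fell by 1.30 ± 0.16 (adjusted p = 3.8e-06) and rose by 0.75 ± 0.16 (adjusted p = 0.00185). With the inhibitor LY6E was still called lower than parental, at -0.54. That call was lost at adjusted p = 0.0769 with no trend in the variance prior and 0.0638 with 2 groups in the fit. It was also lost without any 1 parental array (0.0648 to 0.0765) and without inhibitor replicate 1 (0.158) or 3 (0.0863). PLSCR1, a lipid scramblase, rose by 0.75 ± 0.10 (adjusted p = 1.66e-05), and PARP10 by 0.59 ± 0.13 (adjusted p = 0.00208).

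Of 24 targets shared with or led by interferon gamma, 4 were called higher and 5 lower in inhibitor minus resistant (16.7% and 20.8%, against 8.69% and 8.82% of all genes), with a median of 0.01. The lower count was 3 without resistant replicate 2, resistant replicate 3 or inhibitor replicate 2. GBP1, a guanylate-binding protein, rose by 1.20 ± 0.08 in resistant cells (adjusted p = 1.34e-09) and fell by 0.85 ± 0.08 with the inhibitor (adjusted p = 2.59e-07). WARS1, a tRNA synthetase, fell by 1.04 ± 0.13 (adjusted p = 6.68e-06) and rose by 0.60 ± 0.13 (adjusted p = 0.00291). With the inhibitor WARS1 was still called lower than parental. That call was lost at adjusted p = 0.182 without parental replicate 2 and 0.0786 without inhibitor replicate 3. Of 15 NF-kappaB response genes, 2 were called higher and 4 lower in inhibitor minus resistant (13.3% and 26.7%, against 8.69% and 8.82% of all genes). Their median was -0.03, and the higher count was 1 without resistant replicate 2 or 3. CCL2, a monocyte chemokine, fell by 1.00 ± 0.11 with the inhibitor (adjusted p = 1.52e-06), and NFKBIA, which encodes an inhibitor of NF-kappaB, fell by 0.63 ± 0.14 (adjusted p = 0.00264). The 2 called higher were LTB, a lymphotoxin chain, at 0.56 ± 0.07 (adjusted p = 3.71e-06), and the chemokine gene CXCL8, at 0.41 ± 0.13 (adjusted p = 0.031). The CXCL8 rise was lost at adjusted p = 0.0615 with no trend in the variance prior, 0.204 without resistant replicate 2, 0.0895 without resistant replicate 3, 0.115 without inhibitor replicate 1 and 0.133 without inhibitor replicate 3, within a range of 0.000912 to 0.204 over the 18 alternatives, and in resistant cells CXCL8 had fallen by 2.56 ± 0.13 (adjusted p = 1.18e-11). No difference between these lists and the members was tested.

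**Figure D4:**
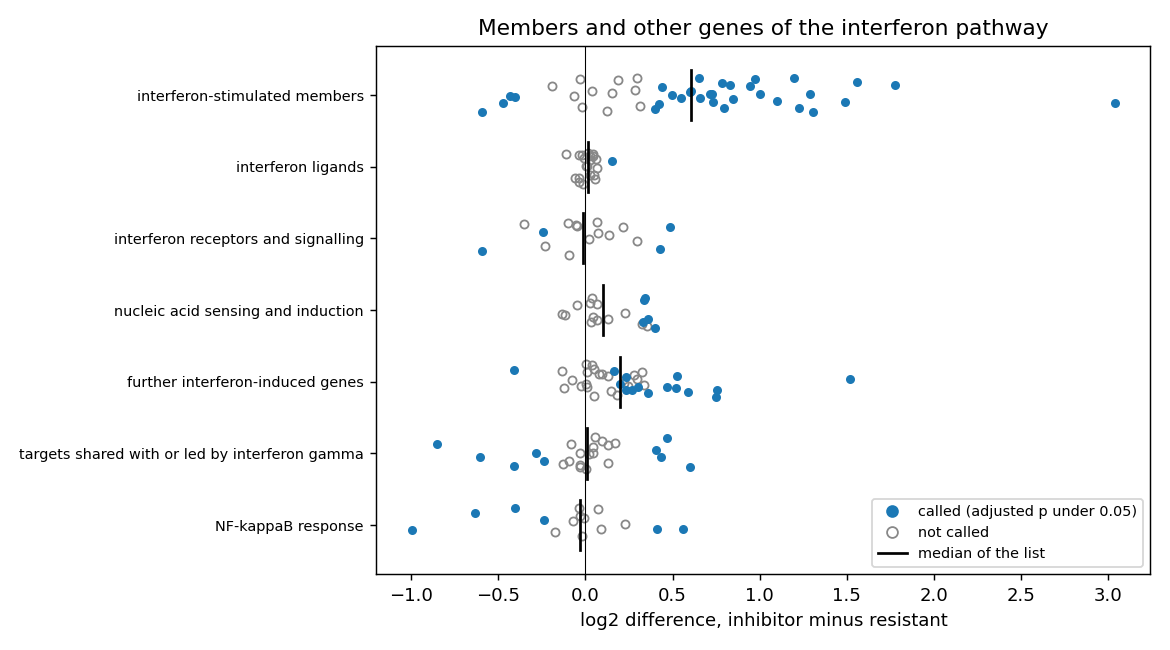
Inhibitor minus resistant log2 difference (horizontal axis) of each member and of each gene of the further lists, with called genes filled, other genes open and a black line at each list's median. The medians are 0.61 for the members, 0.20 for further interferon-induced genes and 0.01 for targets shared with or led by interferon gamma.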

How the data were processed

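Total RNA of 9 samples, 3 each of parental, resistant and inhibitor cells, was measured. Per the labels' protocols, RNA was extracted with Trizol, cleaned and DNase-treated on RNeasy columns, checked on a Bioanalyser and amplified with Ambion's MessageAmp kit into cRNA that carries biotin. The deposited table gives 1 linear intensity per named row and array, from 72.65 to 11566.7. Array medians of 91.1 to 91.3 and sorted values within 0.0178 on the log2 scale show that the deposited intensities were quantile-normalized, and no background had been subtracted. Scanner, software and the way probes were combined were not given in the sources used here. Arrays have no read depth, so their number limits the precision.

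Of 34687 rows, 3270 were named only by a UniGene cluster and left out. With RefSeq's table for GRCh38.p14, 17757 rows were matched on their current symbol, 2669 on a gene number and 3303 on an older symbol, and 7688 kept their name. The brightest row of a gene gave 30672 genes. Log2 intensities were fitted with limma 3.58.1 (R 4.3.3), with a mean for each group from all 9 arrays together and a variance prior that follows intensity. P-values were adjusted over all genes by Benjamini-Hochberg. Genes were called at an adjusted p under 0.05. The script was tested on simulated data. Differences are ± SE, intensities mean ± SD. Tables were made with Python 3.11.15 and pandas 2.3.3, and figures with matplotlib 3.10.9. Alternatives changed the scaling, the variance prior, the background, dim genes, the row rule, unnamed rows, the arrays in the fit, a replicate block, and left out each array.

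Members and lists were chosen with earlier results of these data known. Per-array values are given for members among the 10 largest changes in inhibitor minus resistant, the 5 largest rises or falls in inhibitor minus parental or the 5 largest changes in resistant minus parental, and for members called in opposite directions or against the majority. Some further members are given by array as well, chosen after their values were seen (IRF1, XAF1 and LGALS3BP among them). From each further list up to 4 called genes were eligible, and IFNB1, IFNAR1, IFNAR2, JAK1, TYK2, IRF3, CGAS, STING1 and MAVS were named whatever their result. Some genes stand on more than 1 list (DHX58, ADAR, IFI16, SOCS1 and ICAM1 among them). Some of what the rule takes is not reported here. Protein sequences were not used here.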

Additional observations from a re-analysis of the deposited data

How the results depend on the processing

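Over the 18 alternatives no member that was called changed its direction. Counts of members called stayed within 1.5 times the reported ones. When single arrays were left out, the counts ranged from 6 to 9 higher and 13 to 17 lower in resistant minus parental, from 27 to 31 higher with 4 lower in inhibitor minus resistant, and from 19 to 24 higher and 2 to 3 lower in inhibitor minus parental. Of the 25, 32 and 25 members called in these comparisons, 18, 31 and 19 were called under every alternative, and 7, 1 and 6 were lost under at least 1. With background subtracted, the members' median moved to 0.81 in inhibitor minus resistant and to 0.52 in inhibitor minus parental, since subtraction widens the folds of dim genes. With the replicate block, 8 and 16, 28 and 4, and 21 and 2 members were called higher and lower in the 3 comparisons, and the calls lost were SAMD9 in resistant minus parental (adjusted p = 0.0629) and STAT2 (0.0602) and IFITM1 (0.0645) in inhibitor minus parental. For STING1, in inhibitor minus resistant, the adjusted p was 0.0501. Same-numbered arrays of different groups deviated together at correlations of -0.198 to 0.029, so the numbers were not taken to pair the samples. Signal over background limits TRIM22 and CMPK2, and SAMD9L in parental cells, whose values lay near 92.6.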
